A study of Mus musculus with 24 samples.

Results

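The genes examined here encode the subunits of heterotrimeric G proteins and the regulators of G protein signalling (RGS proteins). Members were all genes whose symbol in the platform annotation of the array begins with Gna, Gnb, Gng or Rgs, without Gng13, Rgs8 and Rgs9. A member also needed a probe called detected (p under 0.05) on 6 or more of the 24 arrays, and the brightest such probe stood for the gene. Of 53 annotated genes, 40 met this rule, out of 11439 named genes that met the same filter on the whole array. They were 11 alpha subunits, 5 beta subunits with the WD repeat gene Gnb1l, 8 gamma subunits, 13 RGS proteins and the binding proteins Rgs7bp and Rgs9bp. The dimmest member, Rgs9bp, was detected on 7 arrays, and among the 13 genes outside the rule Gng11 came nearest, with detection on 2 arrays. The others outside it, Gna14, Gna15, Gnai3, Gnasas1, Gnat2, Gnat3, Gng5, Gngt1, Rgs1, Rgs13, Rgs18 and Rgs20, were detected on at most 1 array.

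The animals were naive littermates of the inbred strain SJL/JOrlCrl at 10 weeks of age, and all were free of treatment. Total RNA was measured on Illumina bead arrays in 4 groups of 6 arrays: female cerebellum, male cerebellum, female frontal cortex and male frontal cortex. Both tissues came from each of 12 animals, 6 of each sex. The series asked which transcripts set the female cerebellum apart. Each array therefore reports a whole piece of tissue, in which fewer cells of a type and less RNA per cell cannot be told apart.

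A heterotrimeric G protein consists of an alpha subunit that binds GTP and a paired beta and gamma subunit, and it relays signals from membrane receptors. The alpha subunit decides the main target: Gs and Golf stimulate adenylyl cyclase, Gi, Go and Gz inhibit it, Gq and G11 activate phospholipase C beta, and G12 and G13 act on the actin cytoskeleton, while free beta-gamma pairs open potassium channels. RGS proteins speed GTP hydrolysis by the alpha subunit and so end the signal. Those of the R7 family work in a complex with the beta subunit Gnb5 and are anchored to membranes by Rgs7bp or, in the retina, Rgs9bp.

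Arrays had median signals of 69.29 to 75.17 intensity units, and 18099 to 19927 of 45281 probes were detected on each. The number of arrays, and not sequencing depth, limits the precision here. The correlation between arrays was 0.9827 to 0.9954 within a group and reached 0.9343 at most between the tissues. The tissue labels were checked on marker genes. All 5 granule cell markers and all 3 Purkinje cell markers were higher in cerebellum, and Gabra6, Neurod1, Pcp2 and Ppp1r17 were not detected on any frontal cortex array. All 5 markers of cortical excitatory neurons were lower in cerebellum.

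Most G protein and RGS genes that differed between the tissues were lower in the cerebellum. In the difference averaged over sexes, 26 of the 40 members were lower in cerebellum and 6 were higher, while 8 did not pass (limma, adjusted p under 0.05 across all kept probes). Across all 11439 genes 32.9% were lower and 37.6% higher, or 70.5% in either direction. Fitted differences of at least 1 on the log2 scale were reached downward by 11 members, which is 27.5% of them, against a background of 7.96%. One of them, Rgs14, was not detected in cerebellum, and its measured difference is bounded only at 0.53. A single member, Rgs3, reached that size upward, against a background of 5.98%. The median difference over the members was -0.41 on the log2 scale, cerebellum minus frontal cortex, and the median over all genes was 0.03. By class, alpha subunits counted 1 higher, 4 lower and 6 that did not pass, and beta subunits with Gnb1l counted 2 of each. Gamma subunits counted 1 higher and 7 lower, and the Rgs genes with their binding proteins 2 higher and 13 lower. No difference between the classes was tested.

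**Figure D1:**
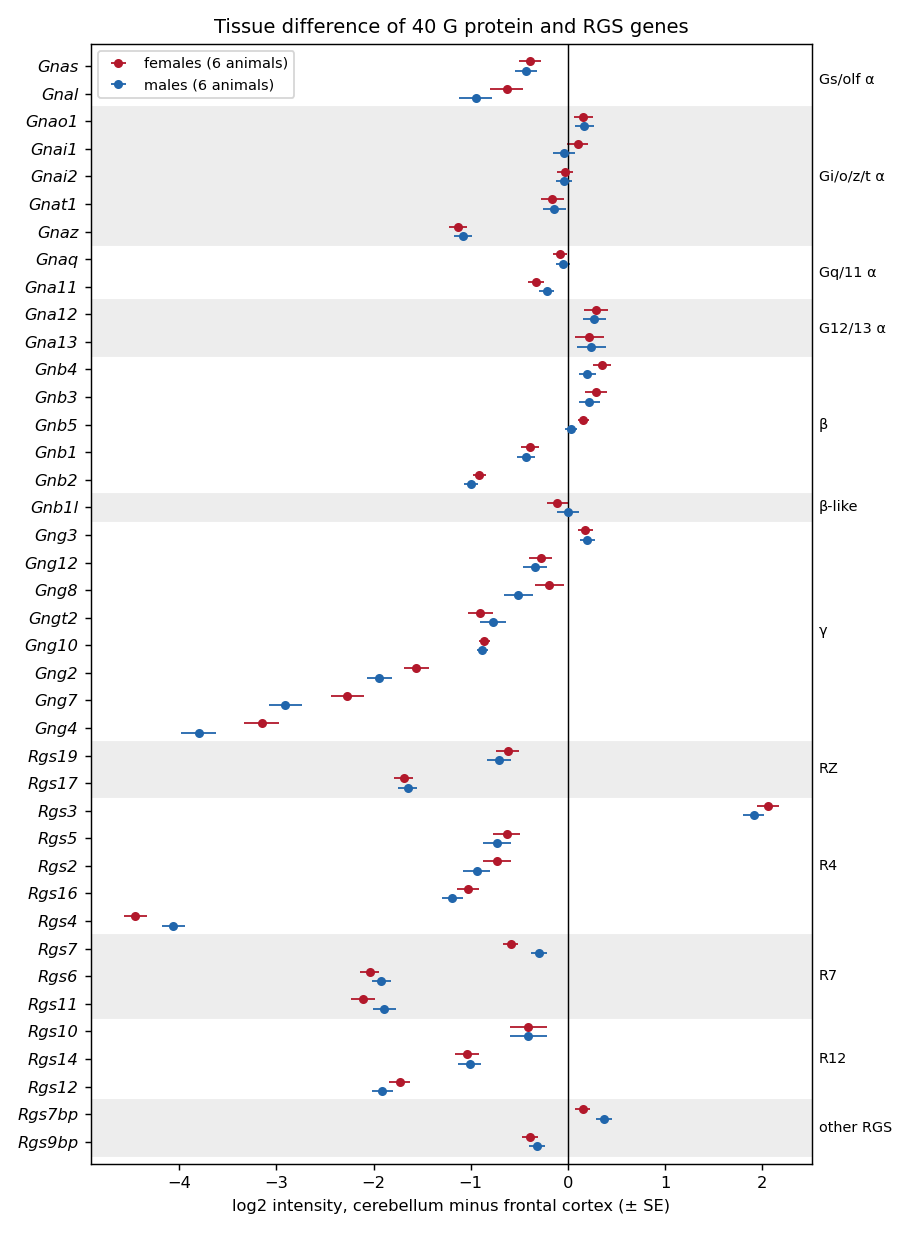
Fitted difference in log2 intensity, cerebellum minus frontal cortex, for each of the 40 members (rows, grouped by role) in females (red) and males (blue), with bars of 1 standard error. Most gamma and RGS genes lie left of 0, Rgs4 is farthest left at -4.45 in females and -4.06 in males, and Rgs3 is alone beyond 1 on the right.

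The 2 sexes gave separate readings of the same contrast. In females 28 members passed, 5 higher and 23 lower in cerebellum, against backgrounds of 60.5% in either direction, 33.1% higher and 27.4% lower. In males 29 passed, 4 higher and 25 lower, against backgrounds of 60.7%, 31.5% and 29.1%. In the same direction in both sexes, 25 members passed, against 52.8% of all genes. Levels of the 12 cerebellum arrays and the 12 frontal cortex arrays did not overlap for 14 members that were lower in cerebellum, against 15.5% of all genes, and for 1 that was higher, against 15.8%. The filter on detection bears on these counts. Rgs14, Rgs2 and Rgs9bp were detected on no cerebellum array and entered through frontal cortex alone, so they could only be lower in cerebellum. Rgs19 was detected on 2 of 12 cerebellum arrays and Gnal and Gngt2 on 5, short of the 6 that the filter needs. They too met it only with their frontal cortex arrays, and the count of 26 lower members includes them with the former. The same held for Gnat1 on 4 and Gnb1l on 3 cerebellum arrays, which did not pass. Gng4 was detected on 7 cerebellum arrays and Rgs6 on 8, whereas 29 members were detected on all 24 arrays.

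**Figure D2:**
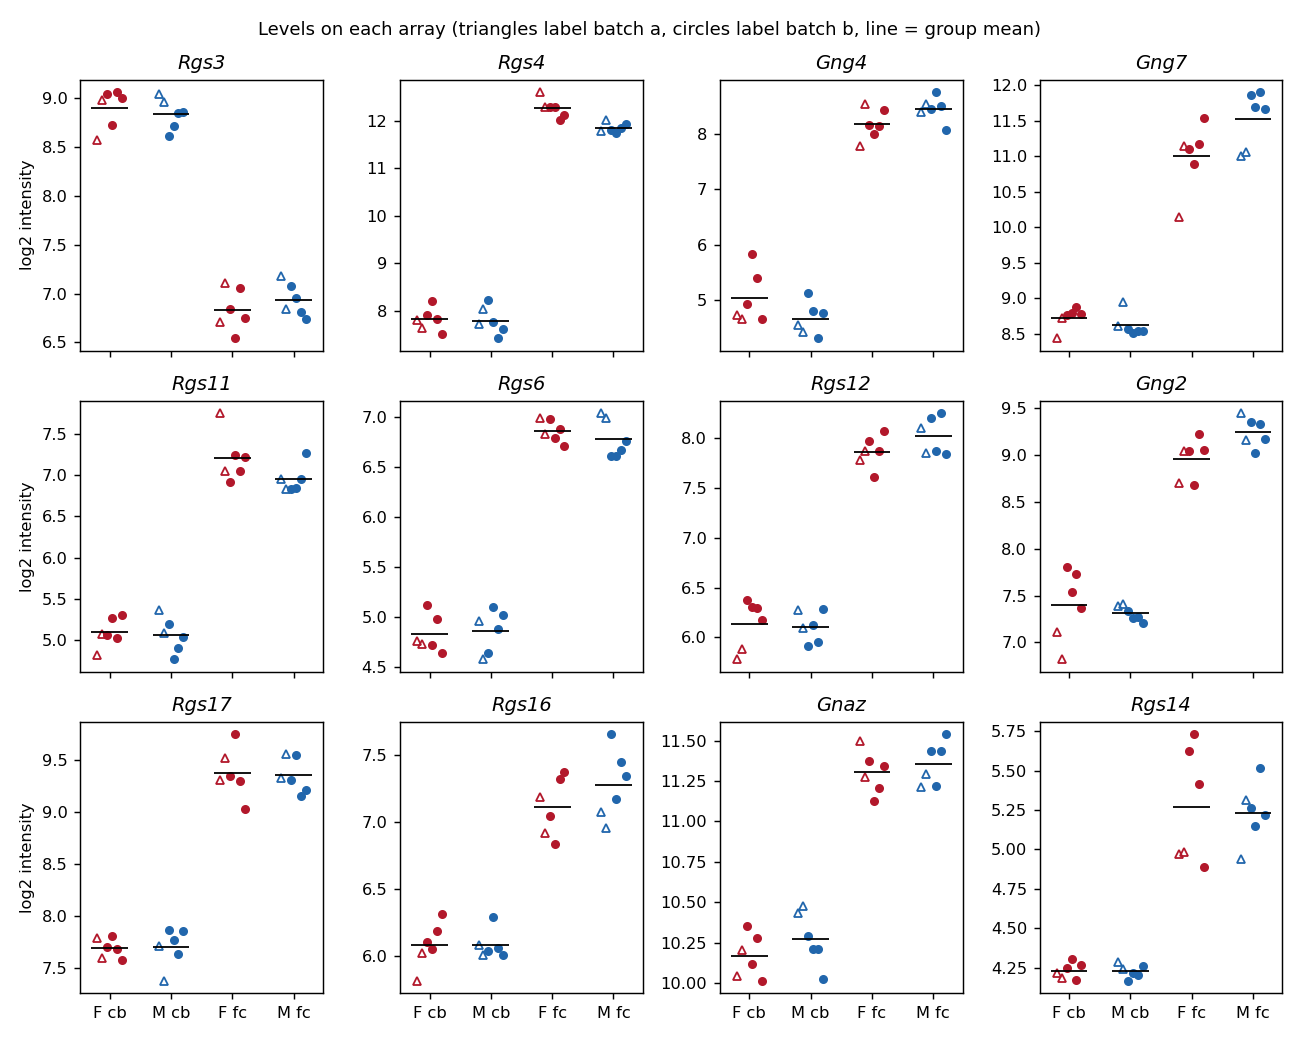
Normalised log2 intensity on every array for the 12 members with a fitted tissue difference of at least 1, in female (F cb) and male (M cb) cerebellum and in female (F fc) and male (M fc) frontal cortex. Lines are means of 6 arrays, triangles are label batch a and circles label batch b, and no cerebellum array overlaps the frontal cortex arrays in any panel.

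Among the stimulatory alpha subunits, both Gnas and Gnal were lower in cerebellum. Gnas, which encodes the widely used Gs alpha subunit, had lowest, median and highest log2 intensities of 9.46, 9.82 and 10.02 in cerebellum, against 9.92, 10.14 and 10.42 in frontal cortex. The tissue ranges overlapped slightly, and the level was lower in the cerebellum of 11 of 12 animals. The difference was -0.41 ± 0.08 (SE, 12 arrays per tissue), or 1.33-fold lower (limma adjusted p = 2.5e-05). Gnal encodes Golf, the Gs relative of olfactory and striatal neurons. It lay at 4.40, 4.68 and 5.01 in cerebellum, against 4.83, 5.67 and 6.01 in frontal cortex, and was at least 1.61-fold lower in cerebellum (adjusted p = 1.9e-06). That figure is a lower bound because most cerebellum arrays did not detect the probe. Averaging the 4 kept probes of Gnas gave -0.22.

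Of the inhibitory class, Gnaz alone passed by its brightest probe. Gnaz encodes Gz, which inhibits adenylyl cyclase and is resistant to pertussis toxin. Its log2 intensity was 10.02 at the lowest, 10.21 at the median and 10.48 at the highest in cerebellum, against 11.12, 11.32 and 11.54 in frontal cortex. The tissues did not overlap, and Gnaz was 2.15-fold lower in cerebellum (-1.11 ± 0.06, adjusted p = 3.8e-15). Gnao1, which encodes the Go alpha subunit abundant in neurons, lay at 11.09, 11.34 and 11.71 in cerebellum, against 10.97, 11.24 and 11.43 in frontal cortex. Its difference of 0.16 ± 0.07 missed the threshold (adjusted p = 0.053), and its size was 0.01 under median scaling. Gnai1, a Gi alpha subunit, lay at 8.80, 8.97 and 9.32 in cerebellum, against 8.65, 9.03 and 9.24 in frontal cortex. These ranges overlapped almost wholly, and the difference was 0.03 ± 0.08 (95% interval -0.14 to 0.19, adjusted p = 0.78). Gnai2, another Gi subunit, gave -0.04 (interval -0.15 to 0.07) by its brightest probe and did not pass, while its other probe was lower in cerebellum (-0.27, adjusted p = 0.00022). The rod transducin Gnat1 was detected on 4 cerebellum and 7 frontal cortex arrays and did not pass (fitted difference -0.15, interval -0.32 to 0.02).

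Of the Gq and G12 classes, Gna11 and Gna12 passed by their brightest probes, in opposite directions. Gnaq, the Gq alpha subunit that activates phospholipase C beta, had log2 intensities of 10.57, 10.81 and 11.02 at the lowest, median and highest in cerebellum, against 10.68, 10.85 and 11.14 in frontal cortex. Its difference was -0.07 ± 0.05 and did not pass (95% interval -0.17 to 0.04, adjusted p = 0.28), although median scaling gave -0.20 (adjusted p = 0.0013). Its close relative Gna11 lay at 9.06, 9.39 and 9.51 in cerebellum, against 9.35, 9.62 and 9.85 in frontal cortex, and was 1.21-fold lower (-0.27 ± 0.05, adjusted p = 6.6e-05). A dimmer Gna11 probe on all 24 arrays gave -0.60 (adjusted p = 1.8e-09). Gna12, of the class that acts on the actin cytoskeleton, was 1.22-fold higher in cerebellum, where it lay at 7.04, 7.33 and 7.70, against 6.58, 7.09 and 7.35 in frontal cortex (0.28 ± 0.08, adjusted p = 0.0036). Gna13, of the same class, was at 8.64, 9.37 and 9.66 in cerebellum, against 8.62, 8.97 and 9.40 in frontal cortex. It missed the threshold (0.23 ± 0.11, adjusted p = 0.060), yet its level was higher in the cerebellum of 12 of 12 animals. With the animal as a fixed block the same difference passed (adjusted p = 0.002), and it passed in 9 of 40 settings. Its other probe, detected on 24 arrays, gave 0.00 (adjusted p = 0.97), with 0.18 in females and -0.17 in males.

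The beta subunits split by member. Gnb2, one of the broadly expressed beta subunits, showed log2 intensities of 9.82, 10.12 and 10.18 in cerebellum, against 10.95, 11.04 and 11.21 in frontal cortex, with no overlap. It was 1.94-fold lower in cerebellum (-0.96 ± 0.05, adjusted p = 5.3e-16). Gnb1, the most widely studied beta subunit, lay at 10.74, 11.04 and 11.35 in cerebellum, against 11.23, 11.45 and 11.58 in frontal cortex, and was 1.33-fold lower (-0.41 ± 0.06, adjusted p = 3.2e-06). Both directions were present in the family, because Gnb4 was higher in cerebellum, at 7.78, 8.02 and 8.15, against 7.34, 7.72 and 8.04 in frontal cortex (0.28 ± 0.06, adjusted p = 0.00035). Gnb3, known from cone photoreceptors and taste cells, was also higher (0.25 ± 0.07, adjusted p = 0.0038) and was detected on 12 cerebellum arrays and 8 frontal cortex arrays. Gnb5, the obligate partner of the R7 RGS proteins, lay at 11.06, 11.12 and 11.22 in cerebellum, against 10.93, 10.99 and 11.31 in frontal cortex, and did not pass on average (0.10 ± 0.04, adjusted p = 0.058). It passed in 11 of 40 other settings, with the label batch as a block among them (adjusted p = 0.044), and was -0.06 under median scaling. In females it passed at 0.16 (adjusted p = 0.033), where its other probe was called lower (-0.19, adjusted p = 0.017). With the animal as a block the brightest Gnb5 probe did not pass in females (adjusted p = 0.059). In males the Gnb4 difference of 0.20 missed the threshold (adjusted p = 0.052) and passed with that block (adjusted p = 0.048). Gnb1l, a WD repeat protein named for its resemblance to beta subunits, was detected on 3 cerebellum and 7 frontal cortex arrays and did not pass (fitted difference -0.06, interval -0.22 to 0.10).

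Gamma subunits, which anchor the beta-gamma pair to the membrane through a lipid tail, were lower in cerebellum for 7 of 8 measured genes and higher for the other. Their median difference was -0.85, against 0.03 over all genes. Gng4 was the lowest of them. In cerebellum its log2 intensities ran from 4.31 through a median of 4.75 to 5.83, against 7.79, 8.42 and 8.76 in frontal cortex. The gap between the tissues was wide, and Gng4 was 11.1-fold lower in cerebellum (-3.47 ± 0.12, adjusted p = 2.6e-19). In males, whose cerebellum arrays detected it 3 times in 6, the difference was at least 12.5-fold. Without background correction, or in the deposited values of the authors, the averaged difference of Gng4 was -2.24 on the log2 scale.

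Gng7 encodes the gamma subunit that joins Golf in striatal neurons. It lay at 8.44, 8.67 and 8.94 in cerebellum, against 10.15, 11.16 and 11.90 in frontal cortex. All frontal cortex arrays lay above all cerebellum arrays, though the frontal cortex arrays spread widely, and Gng7 was 6.01-fold lower in cerebellum (-2.59 ± 0.12, adjusted p = 1.2e-16). The mean of its 3 kept probes gave -1.49. Gng2, a neuronal gamma subunit, lay at 6.82, 7.35 and 7.81 in cerebellum, against 8.68, 9.11 and 9.45 in frontal cortex, and was 3.36-fold lower (-1.75 ± 0.09, adjusted p = 1.1e-15). Gng10 was 1.83-fold lower without overlap, at 10.24, 10.36 and 10.51 in cerebellum, against 11.08, 11.23 and 11.35 in frontal cortex (-0.87 ± 0.04, adjusted p = 3.5e-16).

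Smaller differences were seen in the remaining gamma genes. Gngt2, the gamma subunit of cone transducin, was at least 1.66-fold lower in cerebellum (adjusted p = 7.4e-09), Gng8 was 1.28-fold lower (-0.35 ± 0.11, adjusted p = 0.0048) and Gng12 was 1.24-fold lower (-0.31 ± 0.09, adjusted p = 0.0027). Gng3, a gamma subunit of neurons, was the exception. Its log2 intensity was 8.23, 8.55 and 8.73 in cerebellum, against 8.15, 8.38 and 8.49 in frontal cortex, and it was 1.14-fold higher in cerebellum, with this direction in 10 of 12 animals (0.19 ± 0.06, adjusted p = 0.0045). Under median scaling Gng3 no longer passed (0.13, adjusted p = 0.059).

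Among the R4 family, the small RGS proteins that act on Gi and Gq subunits, Rgs4 and Rgs3 lay at opposite ends. Rgs4, an RGS protein abundant in cortical neurons, had lowest, median and highest log2 intensities of 7.43, 7.79 and 8.23 in cerebellum, against 11.74, 12.02 and 12.60 in frontal cortex. Even the brightest cerebellum array stayed far below the dimmest frontal cortex array. Rgs4 was 19.1-fold lower in cerebellum (-4.25 ± 0.09 on the log2 scale, adjusted p = 1.3e-24). Per animal, the difference between the tissues ran from -4.79 to -3.58.

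Rgs3, a longer R4 protein that acts on Gi and Gq subunits, had log2 intensities of 8.57, 8.91 and 9.07 in cerebellum, against 6.54, 6.84 and 7.18 in frontal cortex. It was higher in the cerebellum of 12 of 12 animals without overlap, at 3.96-fold (1.98 ± 0.07, adjusted p = 8.7e-19). Of its dimmer kept probes, one on 14 arrays gave 0.20 (adjusted p = 0.024) and one on 7 arrays gave 0.06 (adjusted p = 0.52), so the mean of its 3 probes was 0.75.

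Rgs5, a gene known for its high level in pericytes, neighbours Rgs4 on chromosome 1, where the annotated starts of the pair lie 92.1 kb apart. It lay at 7.50, 8.22 and 8.69 in cerebellum, against 8.52, 8.88 and 9.03 in frontal cortex, and was 1.60-fold lower in cerebellum (-0.68 ± 0.10, adjusted p = 8e-07). Markers of endothelial cells and pericytes were counted in a single list of 8 genes. Of these markers 4 were higher in cerebellum, none was lower and 4 did not pass, with a median of 0.09. Their part in the level of Rgs5 was not tested, and pericyte genes were not counted apart. Their summed intensity ran over 2440 to 2630 in female cerebellum, 2300 to 2810 in male cerebellum, 1970 to 2430 in female frontal cortex and 2070 to 2520 in male frontal cortex. Rgs16, also on chromosome 1, lay at 5.82, 6.05 and 6.31 in cerebellum, against 6.83, 7.18 and 7.65 in frontal cortex, and was 2.16-fold lower (-1.11 ± 0.08, adjusted p = 7.1e-13). Rgs2, a regulator that prefers Gq and is rapidly induced by neuronal activity, was not detected in cerebellum. It was at least 1.55-fold lower there, the only direction open to it (adjusted p = 3e-08 for the fitted difference). The immediate early genes measured beside it were lower in 5 of 6 cases, with a median of -1.48, and their part in the level of Rgs2 was not tested. Their summed intensity was 2050 to 2830 in female cerebellum, 2100 to 3020 in male cerebellum, 5860 to 9900 in female frontal cortex and 4910 to 9970 in male frontal cortex, and Fosb was not detected on any cerebellum array.

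The promoter sequences of Rgs4 and Rgs3 are shown because these genes had the largest differences in the 2 directions, and that of Rgs5 because it neighbours Rgs4. Each runs over the 250 bases before an annotated start, 5′ to 3′ on the strand of the gene, from RefSeq on build GRCm38.p6. Capitals mark the TATA box letters TATAAA and the CCAAT box letters CCAAT, each searched on both strands, so that a CCAAT box on the other strand reads ATTGG. The Rgs4 window, chr1:169747643-169747892 on the minus strand, is shown first. The Rgs5 window is chr1:169655251-169655500 on the plus strand. Of Rgs3 both annotated starts are shown, with windows chr4:62559597-62559846 and chr4:62619422-62619671 on the plus strand.
Rgs4: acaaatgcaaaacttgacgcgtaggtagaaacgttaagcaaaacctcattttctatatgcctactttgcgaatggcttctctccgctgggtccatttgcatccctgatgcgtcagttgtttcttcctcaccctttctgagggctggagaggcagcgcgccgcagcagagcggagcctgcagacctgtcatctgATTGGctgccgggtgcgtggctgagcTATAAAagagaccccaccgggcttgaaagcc
Rgs5: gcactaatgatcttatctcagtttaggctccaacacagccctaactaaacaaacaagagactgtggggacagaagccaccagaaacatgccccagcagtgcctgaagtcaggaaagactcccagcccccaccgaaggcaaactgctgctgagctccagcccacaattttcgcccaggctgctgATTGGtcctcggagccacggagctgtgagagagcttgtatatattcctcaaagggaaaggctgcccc
Rgs3, first start: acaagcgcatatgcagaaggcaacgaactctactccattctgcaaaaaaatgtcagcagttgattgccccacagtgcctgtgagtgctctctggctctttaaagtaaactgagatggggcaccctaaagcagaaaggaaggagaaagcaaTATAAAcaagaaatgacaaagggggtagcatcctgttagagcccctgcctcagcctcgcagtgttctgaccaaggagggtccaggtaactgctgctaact
Rgs3, second start: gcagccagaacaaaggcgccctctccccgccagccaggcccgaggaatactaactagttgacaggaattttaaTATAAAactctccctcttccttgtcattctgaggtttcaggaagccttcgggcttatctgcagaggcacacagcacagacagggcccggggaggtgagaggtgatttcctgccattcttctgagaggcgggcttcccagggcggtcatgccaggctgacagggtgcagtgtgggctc
In the Rgs4 window TATAAA lay 31 bases before the start and CCAAT 57 bases before it. The Rgs5 window held CCAAT 67 bases before the start and no exact TATAAA, and variants of these letters were not searched. Both Rgs3 windows held TATAAA, at 100 and 177 bases before their starts. Across windows of the same length, TATAAA was found in 11.6% of 21263 windows of protein-coding genes and in 7 of 40 windows of 30 members (17.5%). These 7 windows belonged to Gnas, Rgs3, Rgs4 and Gnb5 only, because Gnas and Rgs3 gave several each, so windows are not separate genes. CCAAT was found in 35.4% of all windows and in 10 of those of members. The windows of members had a median of 18 CpG dinucleotides and 63.0% G and C, against 10 and 55.6% over all protein-coding genes. The printed windows held 13 CpG in Rgs4, 4 in Rgs5, and 3 and 7 in Rgs3. These matches describe letters and no binding was measured.

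All 3 measured R7 genes, whose products pair with Gnb5, were lower in cerebellum. Rgs11 lay at 4.77, 5.07 and 5.36 in cerebellum, against 6.84, 7.01 and 7.75 in frontal cortex, and was 3.99-fold lower (-2.00 ± 0.08, adjusted p = 1.1e-17). Rgs6 lay at 4.57, 4.82 and 5.12 in cerebellum, against 6.61, 6.81 and 7.04 in frontal cortex, and was 3.94-fold lower (-1.98 ± 0.07, adjusted p = 3.6e-19). Neither gene overlapped between the tissues. Rgs7, the R7 protein found widely in brain neurons, was lower by less, at 9.84, 10.01 and 10.30 in cerebellum, against 10.21, 10.42 and 10.78 in frontal cortex (-0.44 ± 0.05, 1.36-fold, adjusted p = 4.4e-08). Both Rgs11 and Rgs6 were dim in cerebellum, and without background correction their differences were -1.14 and -1.06.

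The anchor Rgs7bp was higher in cerebellum by its brightest probe. It lay at 12.54, 12.74 and 12.88 in cerebellum, against 12.29, 12.40 and 12.69 in frontal cortex, and was 1.20-fold higher there on average (0.26 ± 0.06, adjusted p = 2e-04). It passed in males (0.37, adjusted p = 0.00023) and missed the threshold in females (0.15, adjusted p = 0.11), and the difference between the sexes did not pass (adjusted p = 0.72). A dimmer probe on all 24 arrays gave 0.06 (adjusted p = 0.65), and median scaling gave 0.02 for the brightest (adjusted p = 0.81). The other anchor gene, Rgs9bp, was detected on 7 frontal cortex arrays and no cerebellum array. It passed on average (adjusted p = 3.8e-06 for the fitted difference), in the only direction open to it. It was at least 1.10-fold lower in the cerebellum of females, while in males 3 of 6 frontal cortex arrays detected it and no fold is given.

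The R12 family combines an RGS domain, in Rgs12 and Rgs14, with a Ras-binding region and a GoLoco motif that holds alpha subunits in the GDP form. Rgs12 lay at 5.78, 6.15 and 6.37 in cerebellum, against 7.61, 7.87 and 8.25 in frontal cortex, and was 3.53-fold lower without overlap (-1.82 ± 0.08, adjusted p = 8.6e-18). Rgs14, best known from hippocampal neurons, was at 4.17, 4.23 and 4.30 in cerebellum, where it was not detected, against 4.89, 5.24 and 5.73 in frontal cortex. It was at least 1.44-fold lower (adjusted p = 1.5e-11). Rgs10, a small member of the family that is abundant in microglia, spread widely within both tissues, at 7.07, 7.68 and 8.19 in cerebellum, against 7.46, 7.98 and 8.52 in frontal cortex. It passed on average (-0.41 ± 0.13, adjusted p = 0.008) but in neither sex alone (adjusted p = 0.065 in females and 0.062 in males). Microglia markers moved in the same direction as Rgs10, with 7 of 7 lower in cerebellum and a median of -1.21. Their summed intensity was 499 to 567 in female cerebellum, 487 to 624 in male cerebellum, 1210 to 1420 in female frontal cortex and 1200 to 1570 in male frontal cortex, and each was detected in both tissues. The part of microglia in the level of Rgs10 was not tested.

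Of the RZ family, which favours Gz and Gi subunits, Rgs17 lay at 7.38, 7.70 and 7.87 in cerebellum, against 9.03, 9.32 and 9.75 in frontal cortex. It was 3.18-fold lower without overlap (-1.67 ± 0.07, adjusted p = 2e-17), and a dimmer probe gave -1.54. The Gz gene Gnaz and this Gz regulator were both lower in cerebellum. Rgs19, known as the protein GAIP that binds Gi subunits, was at least 1.43-fold lower (adjusted p = 8.2e-08), while its dimmer probe gave -0.15 (adjusted p = 0.11).

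Among the 40 members, 16 had more than 1 kept probe. Of the 22 dimmer probes, 11 were called in the direction of the brightest, and 17 had its sign, a count that takes in values near 0 such as those of Gna13, Rgs3 and Rgs7bp given above. In the difference averaged over sexes, opposite calls occurred in Gnas alone. A dim Gnas probe was higher in cerebellum (0.42, adjusted p = 0.0031), while the other dim Gnas probes gave -0.49 and -0.39. For Gnb5 a dimmer probe was lower (-0.19, adjusted p = 0.0008), against 0.10 for the brightest. In females these Gnb5 probes were called in opposite directions, as given above. For Gnaq a probe detected on 7 arrays was higher (0.34, adjusted p = 0.00098), and another gave 0.08. For Gnao1 the dimmer probe gave -0.03.

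Other genes of the pathway gave a frame for the members. Both measured phospholipase C beta genes, the effectors of Gq, were higher in cerebellum: Plcb3 by 2.59-fold (1.37 ± 0.06, adjusted p = 1.4e-16) and Plcb4, the form known from Purkinje cells, by 1.57-fold (0.65 ± 0.11, adjusted p = 1.2e-05). Of 8 adenylyl cyclases, the effectors of Gs and Gi, 2 were higher, 5 were lower and 1 did not pass. Among the lower, Adcy7 was detected on only 2 cerebellum and 7 frontal cortex arrays. Adcy1, a calcium-stimulated form, was higher (0.92 ± 0.15, adjusted p = 4.6e-06), and Adcy2 was 3.42-fold lower (-1.77 ± 0.06, adjusted p = 8.1e-20). Among 3 potassium channel genes opened by beta-gamma, Kcnj3 and Kcnj9 were higher, at 0.41 and 0.34, and Kcnj6 was lower. Kcnj6 was detected on 2 cerebellum and 9 frontal cortex arrays, and its difference is bounded at 1.13-fold. Of 4 receptor kinases and arrestins, Arrb1 at -0.51 and Grk6 at -0.54 were lower, and 2 did not pass. Of 6 genes that exchange nucleotide on alpha subunits or carry GoLoco motifs, 3 were higher, 2 were lower and 1 did not pass. Among the lower, Gpsm2 was detected on no cerebellum array and on 8 frontal cortex arrays, so it could only be called lower. Gpsm1 was 2.49-fold higher, and Pcp2, a GoLoco protein of Purkinje cells detected on no frontal cortex array, was at least 291-fold higher.

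**Figure D3:**
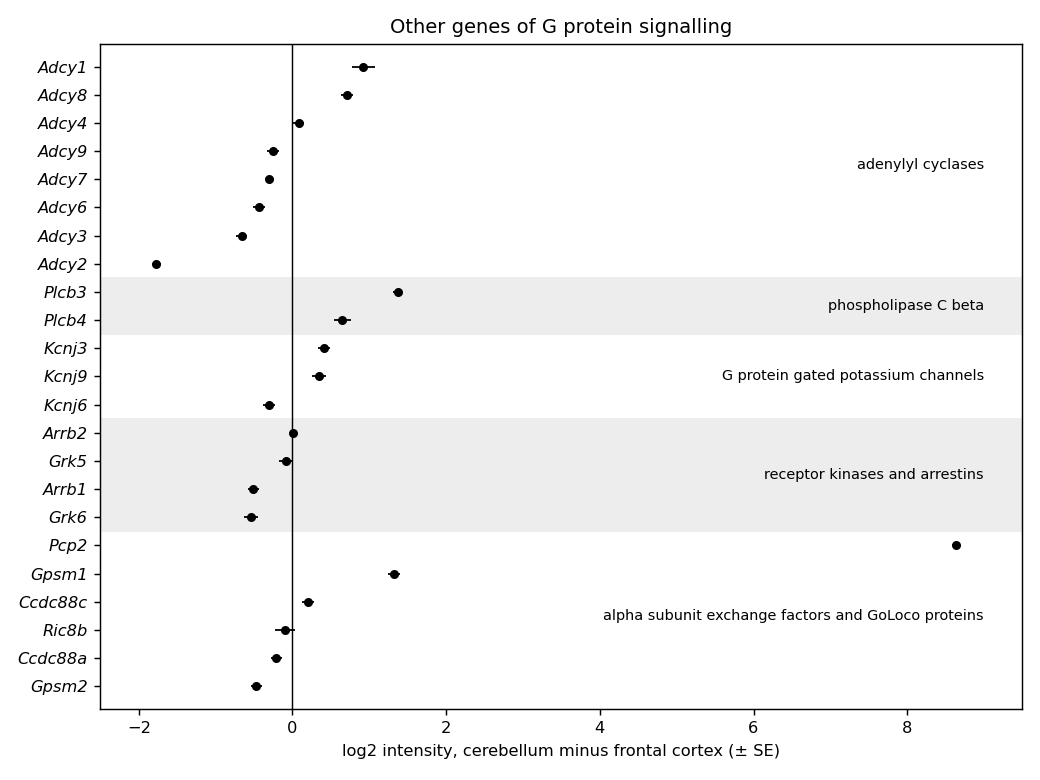
Fitted difference in log2 intensity, cerebellum minus frontal cortex, averaged over sexes with bars of 1 standard error, for 23 other genes of G protein signalling (rows, shaded by class). Pcp2 stands at a fitted 8.63, where no frontal cortex array detected it and the data bound the difference at 8.18, Gpsm1 and Plcb3 lie beyond 1, and Adcy2 lies at -1.77.

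Between females and males no member passed in either tissue. In cerebellum 0 of 40 members passed in limma, against 0.114% of all genes, and 2 had an unadjusted p under 0.05, against 5.46% of all genes. In frontal cortex 0 passed, against 0.157%, and 8 had an unadjusted p under 0.05, against 9.07%. The test of whether the sex difference itself differed between the tissues was passed by 0 members, against 0.0787%, with 5 at an unadjusted p under 0.05, against 6.8%. Female minus male differences ran from -0.21 to 0.37 in cerebellum and from -0.53 to 0.41 in frontal cortex. A p above the threshold does not show equal levels, and the 95% intervals give what these 6 animals per sex allow.

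**Figure D4:**
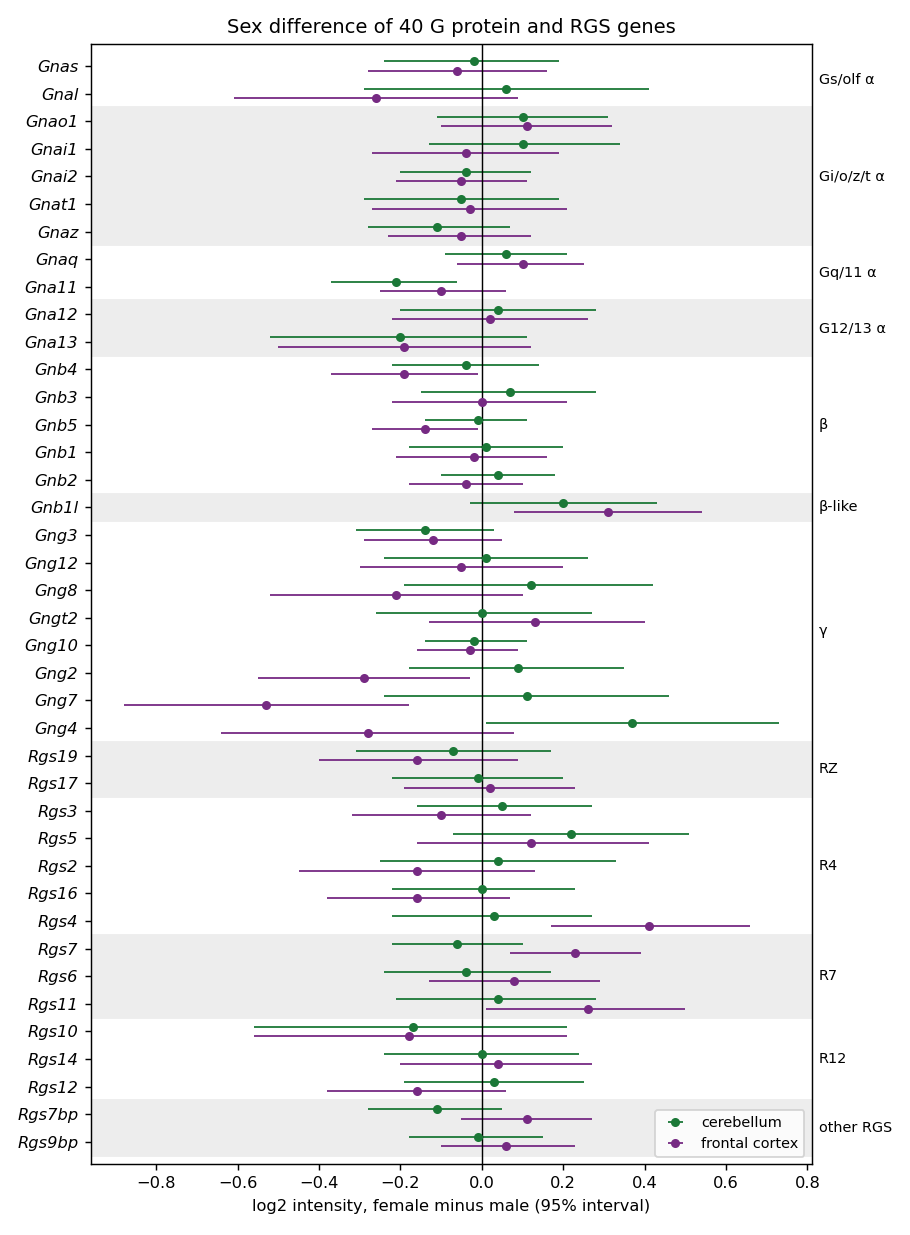
Fitted female minus male difference in log2 intensity for the 40 members in cerebellum (green) and frontal cortex (purple), with 95% intervals. No member passed the adjusted threshold, and the widest spread around 0 is that of frontal cortex, from -0.53 for Gng7 to 0.41 for Rgs4.

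The frontal cortex held the smallest p values for sex. Rgs4 lay at 12.02, 12.29 and 12.60 in females, against 11.74, 11.83 and 12.03 in males. Only their edges overlapped, and the difference was 0.41 (95% interval 0.17 to 0.66, adjusted p = 0.17). Gng7 lay at 10.15, 11.12 and 11.53 in females, against 11.01, 11.67 and 11.90 in males, which overlapped (-0.53, interval -0.88 to -0.18, adjusted p = 0.24). Rgs7 lay at 10.43, 10.54 and 10.78 in females, against 10.21, 10.38 and 10.40 in males. It was the 1 member without overlap between the sexes there, against 0.315% of all genes higher and 0.175% lower in females (0.23, interval 0.07 to 0.39, adjusted p = 0.25).

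In cerebellum the smallest p belonged to Gna11. It lay at 9.06, 9.16 and 9.44 in females, against 9.37, 9.43 and 9.51 in males (-0.21, interval -0.37 to -0.06, adjusted p = 0.63). Gng4 gave 0.37 (interval 0.01 to 0.73, adjusted p = 0.87) near its limit of detection. Gnb1l (adjusted p = 0.93) was detected on 2 of 6 female and 1 of 6 male cerebellum arrays, and no size is given for it. Markers of 2 other cell types differed in median between the sexes of cerebellum, with none past the threshold, and their part in these values was not tested. The 6 choroid plexus markers had a median of 0.69 and a summed intensity of 708 to 12800 in females, against 603 to 7390 in males. Between the label batches described below, their median difference, b minus a, was larger, at -2.14 in female and -1.17 in male cerebellum. The 3 red cell markers had a median of 0.62 and a summed intensity of 7570 to 15200 in females, against 6010 to 9700 in males. No member was free of overlap between the sexes in cerebellum, where 0.254% of all genes were higher and 0.114% lower in females without overlap. In the difference between tissues, Rgs7 gave -0.29 (adjusted p = 0.56), Gng7 0.64 (adjusted p = 0.58) and Gng4 0.65 (adjusted p = 0.58).

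The labels carry a pair of tags, not explained there, that divide the arrays into label batches a and b, with 2 arrays of batch a and 4 of batch b in every group. Within batch b alone, 1 member passed each sex test, against 0.699% of all genes in cerebellum, 1.26% in frontal cortex and 0.323% for the interaction. Gng7 passed in frontal cortex at -0.61 (adjusted p = 0.0076), against -0.38 in batch a (adjusted p = 0.88). For the interaction it passed at 0.87 in batch b (adjusted p = 0.013), against 0.19 in batch a (adjusted p = 0.90). Gna13 passed in the cerebellum of batch b at -0.53 (adjusted p = 0.047), while batch a gave 0.45 (adjusted p = 0.63). For Rgs4 in frontal cortex the batches gave 0.54 in a and 0.35 in b, and for Rgs7 0.33 and 0.18, none of which passed. The tissue differences of at least 1 kept their direction and their call in each batch, for example -4.37 in a and -4.19 in b for Rgs4, and 1.93 and 2.01 for Rgs3.

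Frontal cortex arrays differed from each other in markers of striatal neurons, a cell type of the neighbouring forebrain. Of 7 measured markers 6 were lower in cerebellum and 1 did not pass, and the mean log2 level per array was 6.28 to 7.80 in female frontal cortex, against 7.41 to 8.58 in male frontal cortex. Their summed intensity ran over 2550 to 3380 in female cerebellum, 2810 to 3350 in male cerebellum, 1960 to 5370 in female frontal cortex and 3870 to 9080 in male frontal cortex. In cerebellum this sum was mostly the signal of Ppp1r1b, the marker that did not pass, at a mean log2 intensity of 11.45. No other marker had a mean above 6.53 there. Drd1 and Tac1 were each detected on 1 cerebellum array, and Drd2 and Gpr6 were not detected on any. Gnal and Gng7, which striatal neurons are known to express, were lower in cerebellum as given above, and the part of striatal cells in those tissue differences was not tested. None of the 7 passed a sex contrast, with a median of -0.68 between females and males in frontal cortex. Within frontal cortex, the median over the 7 markers of the difference batch b minus batch a was 0.57 in females and 0.99 in males. For the mean marker level, the female difference between the batches rests on replicate 1 at 6.28. The other batch a array, at 7.78, lay above 3 of the 4 batch b arrays.

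Gng7 followed these markers closely across the 12 frontal cortex arrays. Its Pearson r was 0.98 and its Spearman coefficient 0.98, each with a two-sided permutation p of 1e-05, the smallest that 100000 resamples can give. Adjusted over the 80 relations computed, from 40 members and the striatal and immediate early marker levels, the p was 0.0008. Without the 2 arrays farthest from the median, male replicate 3 and female replicate 1, r was 0.95, and it was 0.95 within the 8 arrays of batch b, 0.95 in females and 0.99 in males. Batch a held 4 frontal cortex arrays, too few for a value. Without female replicate 1, whose marker level stood apart at 6.28, the sex difference of Gng7 in frontal cortex was -0.36 (adjusted p = 0.55). With the striatal marker level as a covariate, the sex difference of Gng7 in frontal cortex was -0.01, of Rgs4 0.28 and of Rgs7 0.15 (adjusted p = 1 for each).

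The other 3 relations that passed on the Pearson scale were those of Gnb4, Rgs6 and Rgs4. Relations were computed for the 40 members alone, so no share over all genes stands beside the number that passed. Other marker lists varied along with the striatal level, but their relations to members were not computed. Across frontal cortex arrays, the choroid plexus mean was lowest on female replicate 1, at 4.63, and highest on male replicate 4, at 5.63. The cortical excitatory mean was highest on the former, at 9.68, and lowest on the latter, at 9.13. Relations to striatal markers cannot be told apart here from relations to these lists. Gnb4 gave r = 0.85 (permutation p = 0.00083, adjusted p = 0.0332) and a Spearman coefficient of 0.76 (permutation p = 0.00565, adjusted p = 0.113), with r = 0.62 without the same 2 arrays, 0.73 in batch b, 0.78 in females and 0.80 in males. Rgs6 ran the other way, with r = -0.77 (permutation p = 0.00151, adjusted p = 0.0403), a Spearman coefficient of -0.87 (permutation p = 0.00059, adjusted p = 0.0236), and r was -0.79 without those arrays, -0.77 in batch b, -0.58 in females and -0.99 in males. Rgs4 gave r = -0.79 (permutation p = 0.00248, adjusted p = 0.0496), but its Spearman coefficient of -0.53 did not pass (permutation p = 0.0791, adjusted p = 0.465), and r was -0.53 without those arrays, -0.93 in batch b, -0.85 in females and -0.37 in males. On the rank scale alone Gnb5 passed (Spearman coefficient 0.84, permutation p = 0.00107, adjusted p = 0.0285), with r = 0.55 in females and 0.85 in males. Gnal did not pass with the striatal markers (r = 0.51, permutation p = 0.0873, adjusted p = 0.346). Its Spearman coefficient was 0.34, and r was 0.11 without the same 2 arrays. With immediate early markers 0 relations passed. In females alone, r with those markers was 0.95 for Gng7, 0.72 for Gnb4, -0.85 for Rgs4 and -0.85 for Rgs6. Female replicate 1 was the lowest frontal cortex array in both marker lists, at 6.28 and 8.36. The r of females without that array was not computed.

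**Figure D5:**
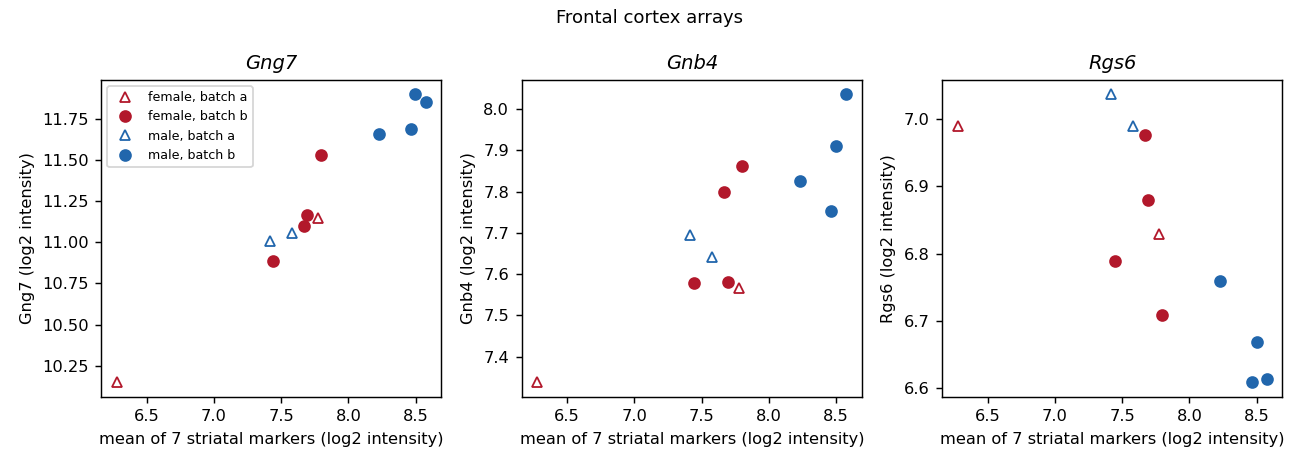
Log2 intensity of Gng7, Gnb4 and Rgs6 on the 12 frontal cortex arrays against the mean log2 intensity of 7 striatal markers on the same array, for females (red), males (blue), label batch a (triangles) and label batch b (circles). Gng7 and Gnb4 increase with the marker level (r = 0.98 and 0.85) and Rgs6 decreases (r = -0.77), and female replicate 1 lies apart at the left.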

How the data were processed

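Gene expression was measured on 24 Illumina arrays, and the labels' sex and tissue gave the groups. Per the file headers, the deposited scanner output gave for each probe a mean bead intensity, not normalized and on a linear scale, a detection p-value, and 2 other measures, the standard error over beads and the number of beads. The authors' deposited values were an intensity normalized between arrays, whose sorted columns were equal to within 1.927%. The submitters' processing notes name Partek without a role or a version. Log2 values were computed here from the deposited intensity.

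Background correction and quantile normalization of the scanner output used neqc of limma 3.58.1 in R 4.3.3 (offset 16, negative controls inferred from detection), with the package data.table, version 1.17.8, for reading. The filter left 21113 of 45281 probes, those detected (p under 0.05) on 6 or more arrays. On the array 34885 probes carried 1 symbol, 18 several and 10378 none here. The linear model had a mean for each group over all 24 arrays. After eBayes it had 20 residual plus 5.82 prior degrees of freedom. P-values were adjusted by Benjamini-Hochberg over all kept probes at 0.05, and every adjusted p for a gene is from limma. Contrasts were cerebellum minus frontal cortex and female minus male. Replicates are separate animals. The labels give both tissues of an animal the same identifier, so replicate numbers pair the tissues. In the check, deviations of an animal's arrays correlated at -0.3 to 0.24, over 0.1 in 5 of 12 pairs, and the consensus correlation was -0.016 (statmod 1.5.0). Where a group detected a probe on 3 or fewer of 6 arrays, a fold is a bound computed with the lowest detected signal of each array. The adjusted p beside such a fold is that of the fitted difference and not of the bound. Levels of different probes were not compared, except for their weight in the summed intensity of striatal markers.

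Full values were given for members past the tissue threshold in both sexes with a difference of at least 1 on the log2 scale, always for Gnas, Gnao1, Gnaq, Gnai1, Gnb1 and Gng3, and for the 3 smallest p of each sex contrast. Other members are named with their class. One list of pathway genes is not reported here. The members and lists were chosen with earlier results of these data known. Alternatives covered background correction, scaling, the authors' values, dim-probe filters, moderation, array weights, label batch, animal, probes per gene and each array left out. The relation to striatal markers, the covariate and the scanner-column block were added after seeing the data. The scripts were tested on simulated data. Promoters came from RefSeq on GRCm38.p6. Correlations and figures used Python 3.11.15 with numpy 2.4.6, scipy 1.17.1, pandas 2.3.3 and matplotlib 3.10.9.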

Additional observations from a re-analysis of the deposited data

Results flagged for a closer look

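Of the 84 groups of 6 arrays examined for the named members, 6 held an array far from the others, a gap that chance gives in about 1 in 20 groups. Gng7 was at a log2 intensity of 8.44 in female cerebellum replicate 1, where the others lay at 8.72 to 8.88, and at 8.94 in male cerebellum replicate 2, where the others lay at 8.52 to 8.61. Rgs11 was at 7.27 in male frontal cortex replicate 6, above the others at 6.84 to 6.96. Rgs16 was at 6.29 in male cerebellum replicate 4, above 6.01 to 6.08. Gnaq was at 11.14 in female frontal cortex replicate 1, above 10.84 to 10.90. Gnai1 was at 9.26 in male cerebellum replicate 6, above 8.88 to 8.99.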

How the results depend on the processing

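With a required difference of at least 1 on the log2 scale, 12 members passed by tissue on average, 12 in females and 12 in males, since fewer genes can meet that rule. Batch b alone gave 1 member for sex in cerebellum, 1 for sex in frontal cortex and 1 for the interaction, and the cause was not tested. Counts by tissue averaged over sexes were 32 with the replicate block (animal as a random block) and 33 with it as a fixed term, 34 in the authors' values, 33 with runs of 6 scanner columns as a block, 25 among probes on all 24 arrays and 23 in batch a alone, which has fewer arrays. The block changed no other call than those of Gna13, Gnb5, Gnb4 and Gng3 (in males 0.20, adjusted p = 0.036, and 0.073 with the block). Leaving out each array in turn gave 32 to 34 members on average, 25 to 30 in females, 26 to 31 in males, and 0 for each sex test and the interaction. Gnaq tissue averaged over sexes was 0.08 from the mean of its kept probes. Gnai1 tissue averaged over sexes was -0.05 under median scaling, -0.02 under cyclic loess, -0.03 in batch b alone, and -0.01 without male frontal cortex replicate 1 or female frontal cortex replicate 6, with -0.01 to 0.06 over all arrays left out in turn. Gnao1 passed in 15 of 40 settings (0.01 to 0.25 over all). The 12 members with a difference of at least 1 kept sign and call in every setting run for them. Without background correction differences of dim probes were smaller, as for Rgs14 (-0.61) and Rgs16 (-0.74). Another scaling moved the median of all probes to between -0.001 and 0.049. In batch a alone Gna11, Gna12, Gnb3, Gng12, Gng3, Gng8, Rgs10, Rgs7bp and Rgs9bp did not pass by tissue. For members near background, such as Rgs14, Rgs2 and Gnal, the folds given are bounds and the differences are fitted values.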
